A study of Saccharomyces cerevisiae with 18 samples.

Results

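Ty elements are the retrotransposons of budding yeast, and 10 of their open reading frames (ORFs) are described here, out of 6205 ORFs in the deposited table of Saccharomyces cerevisiae arrays. The 10 were selected on earlier results from these same arrays, in which they read low in null strains and differed between the dye orientations. Their values are therefore given as a description with no test. All 10 were in the table, and none of their values was missing. The samples were 18 arrays with 2 channels each. Every array set RNA of a null strain in one channel against wild type RNA in the other. The null strains were dot4ubp8 null (UCC6393), dot4 null (UCC6390) and ubp8 null (UCC6392), and the wild type was UCC6389, all grown in YEPD, a rich glucose medium. Each genotype had 3 numbered sets, and each set had 1 array with the null RNA in channel 1 and 1 with it in channel 2. The label of 1 double null array (channel 2, set 3) gives the strain number of the ubp8 null beside the double null's name. The labels do not say that the sets were separate cultures, so the spread between sets may be technical, and each null genotype is represented by 1 strain.

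A Ty element moves by copying its RNA into DNA and inserting that DNA elsewhere in the genome, as a retrovirus does but without leaving the cell. In the Ty1 and Ty2 families, which hold most copies in laboratory strains, 1 RNA carries both reading frames. The short frame, TYA or gag, encodes the protein of the particle. The long frame starts at the same place and runs on by a ribosomal frameshift into TYB or pol, which encodes protease, integrase and reverse transcriptase. Transcription of Ty1 depends on the SAGA coactivator, of which Ubp8 is a subunit. Ubp8 and Dot4, now called Ubp10, both remove ubiquitin from histone H2B.

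Length split the 10 ORFs into 2 kinds in the gene models of R64, the yeast reference assembly, as RefSeq lists them without a name or family for these ORFs. The 7 short ORFs had 1323 bases and were YBL005W-A, YMR046C, YBR012W-A, YJR026W, YJR028W, YMR051C and YML040W. The 3 long ORFs had 5269 bases and were YER160C, YJR027W and YMR050C. They lie on chromosomes II, V, X and XIII. By their positions in that table YJR026W lies inside YJR027W, and YMR051C inside YMR050C. Copies of one family are nearly identical in sequence and the sources used here do not give the probes. The arrays may therefore read many copies at once, and the 10 ORFs are not 10 independent measurements.

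Values below are log2 ratios, null over wild type, from arrays that were each set to a median of 0 over all ORFs. A value of -1 means a level that is lower by a factor of 2 in the null strain. The direction of the deposited ratios was read from the deleted genes. UBP10, the current name of DOT4, was below 0 on all 12 arrays of strains lacking it (-5.58 to -3.88), and UBP8 on all 12 of its own (-3.79 to -1.49). The double null array labelled with the other strain number read -4.67 for UBP10 and -3.38 for UBP8. No ubp8 null array read UBP10 below -0.27, so that array read as a double null. The labels list the channels the other way round, and that order would turn every sign.

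The double null gave the lowest median of the 10 Ty ORFs in both orientations. With the null RNA in channel 1 the median of the 10 ORFs was -1.83 ± 0.20 (SD over 3 sets), and with it in channel 2 it was -0.99 ± 0.16. The median of all ORFs was 0 on every array by the centring. With channel 1, all 10 ORFs were at least 1.5-fold lower in the null strain, where 4.03% of all ORFs were. With channel 2, the 7 short ORFs passed this fold and the 3 long ORFs did not, beside 1.43% of all ORFs. The members' choice used these values, so the counts carry no weight as a test.

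YBL005W-A, a short ORF on chromosome II, read -2.06, -1.63 and -2.00 in sets 1 to 3 of the double null with channel 1. With channel 2 it read -1.18, -1.53 and -1.62. All 6 arrays were below -1, and the 2 orientations did not overlap. Its mean over both orientations was -1.67 ± 0.12 (SD, n = 3 sets), which is 3.18-fold lower in the double null. This was the lowest mean among the 10. YJR026W, a short ORF that lies inside a long one, read -1.99, -1.58 and -1.97 with channel 1. On the channel 2 arrays the values were -0.88, -1.20 and -1.01. Again no channel 2 array was as low as any channel 1 array. The 7 short ORFs had means over both orientations between -1.67 and -1.39, with SDs over sets of 0.02 to 0.12. These SDs understate the spread between arrays. The set medians of the short ORFs had an SD of 0.22 with channel 1 and 0.17 with channel 2, and 0.03 after averaging. Over all ORFs the deviations of the 2 orientations of a set correlated at only -0.007 to 0.26, so the averaged SD depends on how arrays were joined.

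The long ORFs were as low as the short ones in one orientation and near 0 in the other. YMR050C read -1.75, -1.84 and -1.89 in the double null with channel 1. With channel 2 it read 0.05, 0.08 and -0.04. The arrays of 1 orientation had an SD of 0.07 and 0.06, far below the gap between the orientations. YER160C averaged -1.80 ± 0.11 with channel 1 and 0.07 ± 0.11 with channel 2 (SD, n = 3 each). YJR027W averaged -1.85 ± 0.18 and -0.18 ± 0.08. Both followed YMR050C. Averaged over orientations the 3 long ORFs read -0.87, -1.02 and -0.90, levels that no single array of the double null showed.

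**Figure D1:**
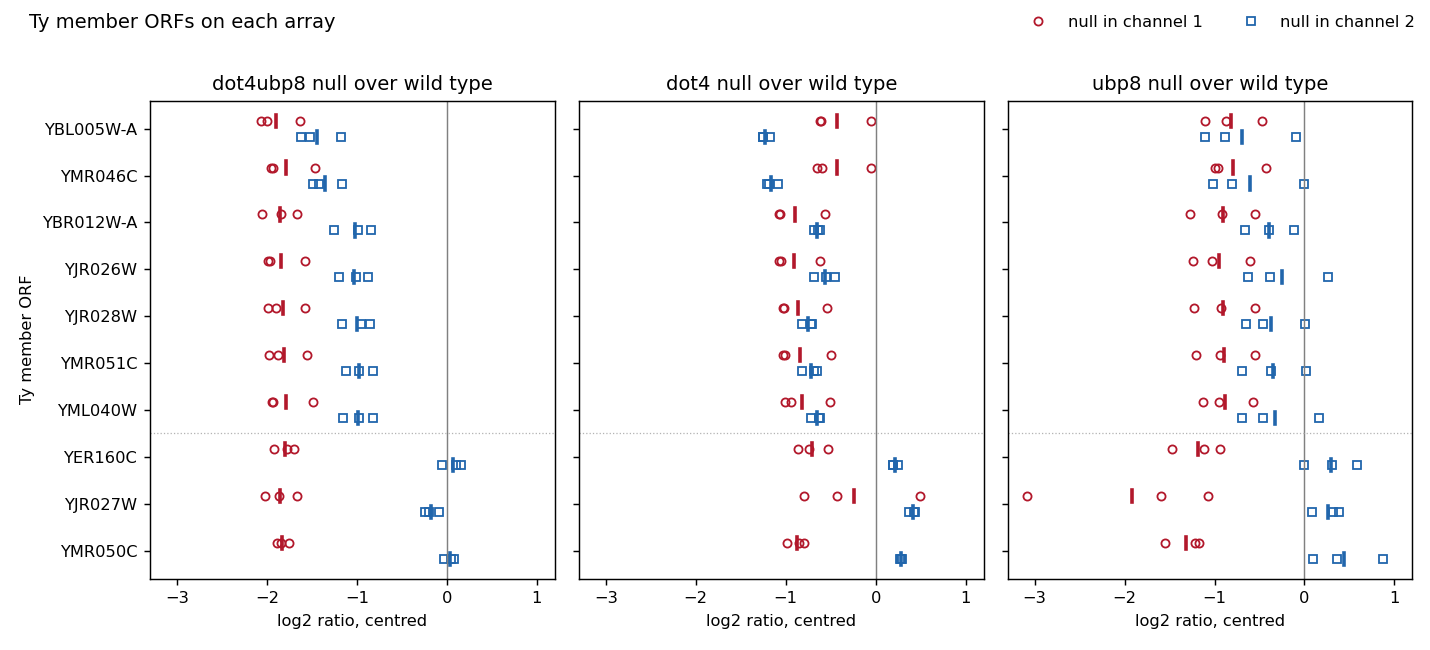
Log2 ratio of null over wild type (x axis) of each of the 10 Ty ORFs (rows, short ORFs above the dotted line, long ORFs below) on each array, by genotype; circles are arrays with the null RNA in channel 1, squares those with it in channel 2, and ticks are means of 3. In the double null the channel 1 values of every ORF lie between -2.06 and -1.47, and the channel 2 values of the long ORFs lie near 0.

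In the dot4 null the short ORFs were lower by less, and the long ORFs averaged on opposite sides of 0 in the 2 orientations. The median of the 10 was -0.77 ± 0.22 with channel 1 and -0.65 ± 0.04 with channel 2 (SD, n = 3 sets). Without centring the channel 2 median was -0.40. With channel 1, 7 of the 10 were at least 1.5-fold lower, beside 3.42% of all ORFs. With channel 2 the number was 6, beside 1.95%.

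YJR026W read -0.62, -1.05 and -1.07 in the dot4 null with channel 1, and -0.46, -0.69 and -0.56 with channel 2. Every array was below 0, and the orientations overlapped. YBL005W-A went the other way, with -0.05, -0.62 and -0.61 for channel 1 and -1.26, -1.25 and -1.17 for channel 2. It and YMR046C were lower with channel 2 by 0.80 and 0.73, whereas the other 5 short ORFs were lower with channel 1 by between 0.12 and 0.35. Averaged over orientations this difference was gone, and all 7 short ORFs read between -0.83 and -0.74. Lower values with channel 2 were not particular to YBL005W-A and YMR046C. YDR170W-A and YCL020W, of the same or like length but no members, were lower with channel 2 by 0.48 and 0.60.

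YMR050C read -0.98, -0.80 and -0.85 in the dot4 null with channel 1. The channel 2 arrays gave 0.27, 0.30 and 0.28. YER160C did the same at -0.71 ± 0.16 and 0.21 ± 0.03 (SD, n = 3 each). YJR027W was uneven: it read -0.42, 0.49 and -0.80 with channel 1, and 0.37, 0.43 and 0.43 with channel 2. Its set 2 array stood apart from the other channel 1 arrays. Its mean over both orientations was 0.08 ± 0.33 (SD, n = 3 sets), and without set 2 it was -0.11, on the other side of 0.

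In the ubp8 null the channel 1 arrays read low throughout, and the sets spread widely in both orientations. The median of the 10 was -0.91 ± 0.34 with channel 1 and -0.32 ± 0.38 with channel 2 (SD, n = 3 sets). All 10 were at least 1.5-fold lower with channel 1, beside 0.854% of all ORFs. YBL005W-A and YMR046C alone were so with channel 2, beside 0.274%. The channel 2 medians of sets 1 to 3 were -0.66, -0.39 and 0.09, so the size depends on the set. Without set 1 the channel 2 median was -0.15, and without set 3 it was -0.52. The channel 1 medians of sets 1 to 3 were -0.94, -0.56 and -1.23. Without set 2 the channel 1 median was -1.09, and without set 3 it was -0.75.

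YBL005W-A read -0.87, -0.47 and -1.11 in the ubp8 null with channel 1. With channel 2 it read -1.10, -0.89 and -0.10, so the orientations overlapped. YJR026W read -1.03, -0.60 and -1.23 with channel 1, against -0.63, -0.38 and 0.26 with channel 2. In each short ORF the set 3 array with channel 2 was the highest of the 6. Their means over both orientations were between -0.76 and -0.60.

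The long ORFs of the ubp8 null read low with channel 1 and mostly above 0 with channel 2. YMR050C read -1.17, -1.21 and -1.55 with channel 1 and 0.09, 0.36 and 0.87 with channel 2. YER160C averaged -1.18 ± 0.27 and 0.29 ± 0.29 (SD, n = 3 each). YJR027W read -1.07, -3.09 and -1.60 with channel 1. Its channel 2 arrays gave 0.08, 0.39 and 0.32. The value of -3.09 was the lowest of any member on any array. It set the mean over both orientations to -0.83 ± 0.46, and without set 2 that mean was -0.57.

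Ordered by genotype, each short ORF read lowest in the double null, where every set mean over both orientations was below every set mean of the single nulls. The dot4 null and the ubp8 null came next, and for each of the 7 short ORFs their set means overlapped (SDs over sets of 0.14 to 0.25). The long ORFs YER160C and YMR050C were also lowest in the double null with channel 1, but there the ubp8 null (-1.18 and -1.31) read lower than the dot4 null (-0.71 and -0.88). YJR027W read -1.85 (double null) and -1.92 (ubp8 null) with channel 1, which did not differ beyond the spread of the ubp8 null arrays (SD 1.04).

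Many other ORFs also differed between the orientations. In the double null, 9 of the 10 ORFs had all 3 channel 1 values below all 3 channel 2 values, and so had 18.8% of all ORFs; YMR046C was the exception. YER160C and YMR050C, 2 of the 10, had it in the dot4 null, beside 37.3% of all ORFs. The 3 long ORFs had it in the ubp8 null, beside 21.6%. The long ORFs differed from the short ones in the size of the gap. In the double null, channel 1 minus channel 2 was -1.87 for YER160C, -1.86 for YMR050C and -1.68 for YJR027W, which ranked 3rd, 4th and 11th lowest of the 6205 ORFs. Large gaps were not particular to members: YMR045C and YCL019W, ORFs of the same or like length, ranked 5th and 10th. The lowest gap, -1.98, was that of another ORF listed by hand as part of a Ty element. In the ubp8 null YJR027W (-2.18), YMR050C (-1.75) and YER160C (-1.47) ranked 1st, 2nd and 12th. Gaps in the dot4 null were smaller, and YMR050C (-1.16) ranked 12th, YER160C (-0.92) 45th and YJR027W (-0.65) 156th. The short ORFs had gaps of -0.83 to -0.43 in the double null (ranks 55 to 238) and of -0.71 to -0.12 in the ubp8 null. The part that the channel itself has in these gaps was not tested.

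**Figure D2:**
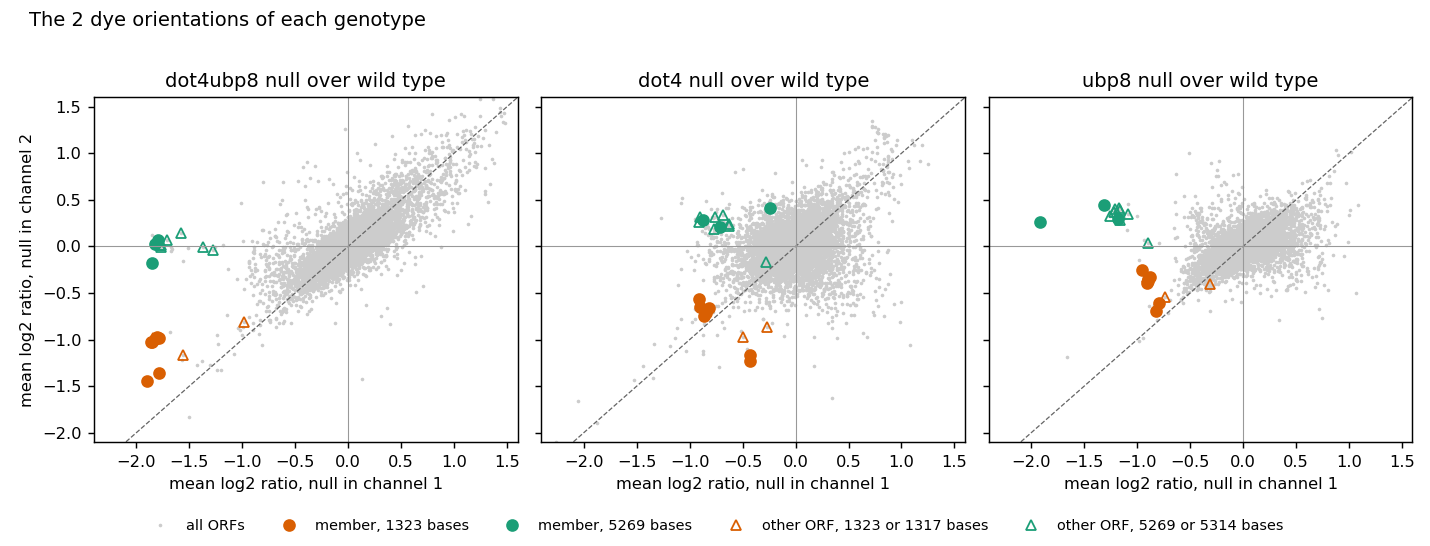
Mean log2 ratio of null over wild type over 3 arrays with the null RNA in channel 1 (x axis) and in channel 2 (y axis), for all ORFs (grey), the Ty members (filled) and other ORFs of the same or like lengths (open triangles); the dashed line marks equal values. The long ORFs sit to the left of most ORFs and near or above 0 on the y axis, apart from YJR027W in the dot4 null at -0.24 on the x axis, and most short ORFs sit nearer the dashed line. A few ORFs with values beyond the axes, the deleted genes among them, are not drawn.

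Short and long ORFs of the same element can be set side by side in 6 cases, because 6 of the short members lie inside a long ORF that the table also holds. The long partners were YBL005W-B, YMR045C, YJR027W, YJR029W, YMR050C and YML039W, of which YJR027W and YMR050C are members. With channel 1 the difference, short minus long, had a median of -0.03 (double null), 0.04 (dot4 null) and 0.32 (ubp8 null). With channel 2 it was -1.01, -1.01 and -0.78 in the same order, and the short ORF was lower in 6 of 6 pairs in every genotype. The smallest channel 2 difference among the 18 was -0.51. Short and long ORFs thus read alike in the double null with channel 1, apart from YML040W and YML039W, which averaged -1.79 and -1.27.

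**Figure D3:**
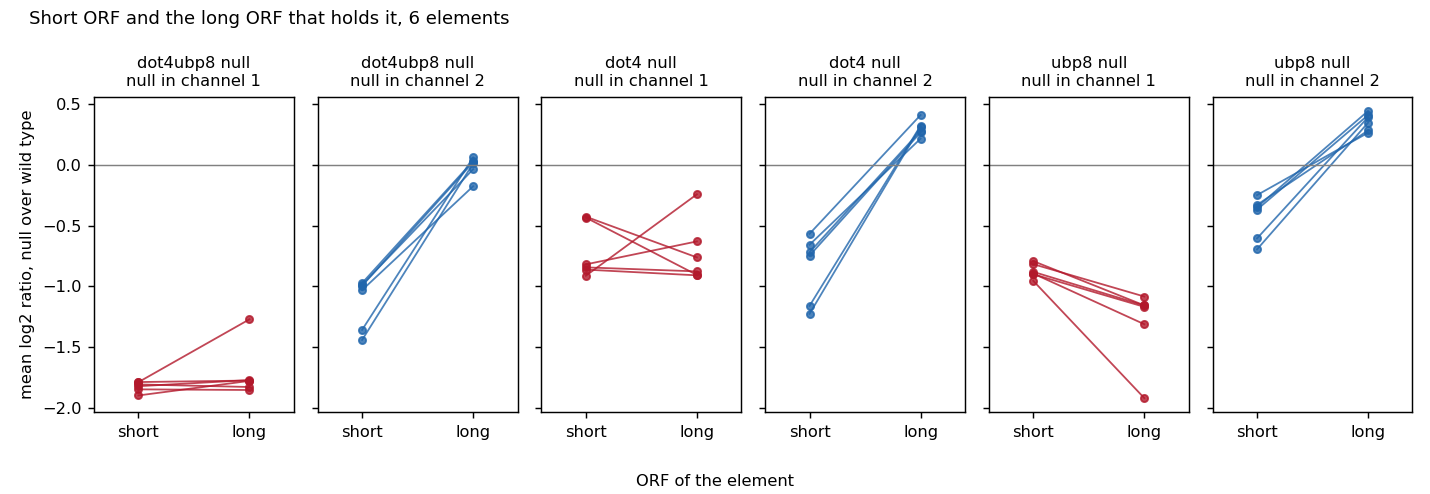
Mean log2 ratio of null over wild type (3 arrays) of the short ORF and the long ORF that holds it, joined by a line for each of 6 elements, in every genotype and orientation. The lines are nearly level in the double null with channel 1, apart from that of YML040W and YML039W, and climb in all 6 elements with channel 2, where short minus long was -1.45 to -0.85.

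Across the 18 arrays most pairs of short ORFs were closely correlated, although YBL005W-A and YMR046C differed from the rest in the dot4 null, as given above. The correlation between 2 short ORFs ranged from 0.738 to 0.998, with a median of 0.981 over 21 pairs. The long ORFs correlated at 0.829 to 0.991, and the value of 0.991 was that of YER160C and YMR050C. Between a short and a long ORF the correlation was 0.225 to 0.795, with a median of 0.573 over 21 pairs. These are descriptions over arrays that share a wild type strain, a genotype or a set, among ORFs that share sequence.

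The double null can be set beside the sum of the 2 single nulls, although every genotype was read against 1 wild type strain. For the 7 short ORFs the median was -1.44 in the double null, and that of the sums was -1.43, averaged over orientations. ORF by ORF the double null minus the sum ran from -0.10 to 0.03 by this average. Each orientation alone gave a wider range, from -0.65 to 0.02 with channel 1 and from -0.21 to 0.48 with channel 2, and YBL005W-A held both -0.65 and 0.48. The long ORFs read -0.90 beside -0.73 by the same average. Here too the orientations shifted in opposite directions: with channel 1 they read -1.83 beside -2.16 and with channel 2 they read 0.03 beside 0.67.

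The table holds 11 other ORFs whose length is shared by many unnamed gene models, as is usual for Ty copies. They were found by length alone, and they share sequence with the members, so they add no independent support. YAR010C and YDR170W-A have the 1323 bases of the short members. They averaged -1.42 and -1.36 in the double null over both orientations. YAR010C was the lowest of the 11. The 6 others of 5269 bases had medians of -1.77 with channel 1 and 0.02 with channel 2. Among these was YML039W, the highest of the 11, at -0.65 over both orientations. YCL020W, the only one of 1317 bases, was lower by less and showed little gap in the double null. It read -0.98 ± 0.25 for channel 1 and -0.81 ± 0.11 for channel 2 there (SD, n = 3 each). In the dot4 null its gap, channel 1 minus channel 2, was 0.60. The 2 ORFs of 5314 bases, YCL019W and YFL002W-A, had the wide gap of the long members in the double null. Their channel 1 means were -1.58 and -1.37 there, against channel 2 means of 0.14 and -0.01. In the dot4 null the gap was -0.86 for YCL019W but only -0.11 for YFL002W-A. A further 15 ORFs listed by hand as parts of Ty elements ranged from -0.93 to 0.42 in the double null, so low values did not extend to every ORF so listed.

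The ORFs most like the median of the 10 members were sought over the 18 arrays. The members, the ORFs of the repeated lengths and those listed by hand were left out. Whether any ORF that remained shares sequence with Ty elements was not checked. PTI1, a subunit of the cleavage and polyadenylation factor, had a Pearson correlation of 0.976. It also had values of the same size, with -1.68 ± 0.20 for channel 1 and -0.92 ± 0.17 for channel 2 in the double null (SD, n = 3 each). In the dot4 null it read -0.63 ± 0.25 and -0.74 ± 0.09, and in the ubp8 null -0.87 ± 0.22 and -0.38 ± 0.48. The next were SNQ2, a drug efflux pump (0.922), SEC26, a COPI coat subunit (0.908), SLN1, an osmosensing histidine kinase (0.902), and OLE1, the fatty acid desaturase (0.901). Their changes were smaller: of these 4 the lowest mean was that of OLE1, -0.83 ± 0.16 in the double null with channel 1. By rank correlation PTI1 was again first (0.961), and SNQ2, SEC26 and OLE1 were again among the first 5. The long ORFs alone were best matched by YCR018C-A (0.984), YDL228C (0.980) and CST6, a transcription factor (0.960), a list made after the split by length was seen. Correlations over these arrays take in genotype, orientation and set at once, and they carry no test.

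Genes known to act on Ty elements were then tested. Their values played no part in choosing the members, but the lists and tests were chosen with earlier results of these data known. The fit was limma on the 9 set means, with Benjamini-Hochberg adjustment over the 6205 ORFs and a threshold of 0.05. Each set mean averaged both orientations, so the SEs and p-values below leave out any gap between orientations. Like the averaged SDs above, they depend on how arrays were joined. The sets may not be separate cultures, so the spread behind them may be technical. In the double null 21 of the 65 listed genes were higher and 27 lower, where 35.3% of all ORFs were called higher and 35.2% lower. For the dot4 null 19 were higher and 9 lower, beside 29.9% and 32.1%. In the ubp8 null 15 were higher and 23 lower, beside 30.0% and 28.7%. So many ORFs were called that these counts say little about the lists. The counts per list below are to be read against the same shares. Averaged over orientations, none of the 65 changed by 1.5-fold in any genotype. Their median was -0.04, 0.04 and -0.02 in that order, beside -0.00033, -0.0073 and 0.0042 over all ORFs. In a single orientation GCN4 (0.63, double null, channel 2) and MCM1 (0.61, dot4 null, channel 1) did pass that fold. MCM1 read -0.39 in the dot4 null with channel 2. Without centring the calls among the 65 numbered 12 up and 13 down for the double null, 20 up and 0 down for the dot4 null, and 2 up and 13 down for the ubp8 null. In the ubp8 null the 38 calls were 23 without set 1 and 22 without set 2.

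Factors that bind the Ty1 promoter moved in both directions. In the double null 3 of 9 rose and 3 fell, with a median of 0.03. GCN4, the activator of amino acid synthesis, rose by 0.42 ± 0.03 (SE, n = 3 set means; limma adjusted p = 7.1e-07), and GCR1, the activator of glycolytic genes, fell by 0.32 ± 0.03 (limma adjusted p = 1.8e-06). In the double null GCN4 read 0.22 with channel 1 and 0.63 with channel 2, a gap that its SE leaves out. Of the 9, the dot4 null had 3 that rose and 1 that fell. RAP1, a general regulator of ribosomal protein genes, was at 0.25 there and MOT3, a repressor, at 0.23. The ubp8 null had 2 that rose and 5 that fell. GCN4 was at 0.28 there, and MCM1, a regulator of mating and cell cycle genes, was at -0.41 ± 0.07 (SE, n = 3; limma adjusted p = 0.00071). From the channel 2 arrays alone MCM1 was not called (limma adjusted p = 0.075).

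The SAGA and SWI/SNF subunits known from Ty transcription moved little. Of 10, the double null had 4 that rose and 4 that fell, the dot4 null 3 and 1, and the ubp8 null 1 and 2. Their values in the 3 genotypes stayed between -0.17 and 0.22. The highest was SPT3, the SAGA subunit that contacts TBP, at 0.22 ± 0.05 in the dot4 null (SE, n = 3; limma adjusted p = 0.0018). SWI1 was at 0.20 (double null) and -0.13 (ubp8 null; limma adjusted p = 0.00087 and 0.019), and both calls were lost from the channel 2 arrays alone (limma adjusted p = 0.058 and 0.39).

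In the mating and filamentation MAP kinase pathway, which drives Ty1 transcription through Ste12 and Tec1, 1 of 8 rose and 5 fell in the double null. The numbers were 2 and 1 in the dot4 null, and 1 and 4 in the ubp8 null. Of all ORFs, 35.3% rose and 35.2% fell in the double null. DIG2, an inhibitor of Ste12, was at -0.25 in the double null, and STE11, a kinase of the cascade, was at 0.18. FUS3, the kinase of the mating response, was at 0.23 in the dot4 null. It was at -0.20 in the ubp8 null, where STE5, the scaffold, was at -0.26.

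Among 12 histone and chromatin genes of the SPT and HIR groups, 1 rose and 6 fell in the double null, beside 35.3% and 35.2% of all ORFs. SPT5, a transcription elongation factor, fell by 0.52 ± 0.03 (SE, n = 3; limma adjusted p = 6.0e-08), and ASF1, a histone chaperone, rose by 0.49 ± 0.04 (limma adjusted p = 8.1e-07). These were the largest changes among the 65. The dot4 null had 2 that rose and 2 that fell, with ASF1 at 0.23. SPT10, an activator of histone genes, was at 0.23 there and was not called from the channel 2 arrays alone (limma adjusted p = 0.24), nor was ASF1 from the channel 1 arrays alone (limma adjusted p = 0.083). The ubp8 null had 3 that rose and 4 that fell, with SPT5 at -0.32 and SPT6, its partner in elongation, at -0.25.

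The regulators of Ty1 transposition are mostly genome caretakers whose loss raises transposition. Of 15, 10 rose and 3 fell in the double null, beside 35.3% and 35.2% of all ORFs. Their median was 0.17, and all values lay between -0.27 and 0.24. RTT107, a scaffold in DNA repair, was at 0.24, and MMS1, a subunit of a ubiquitin ligase in replication repair, at -0.27. The dot4 null had 7 that rose and 1 that fell, with RRM3, a DNA helicase, and RTT103, a termination factor, both at 0.26. RRM3 was not called without set 2 (limma adjusted p = 0.098). Of these 15, 7 rose and 3 fell in the ubp8 null, with RTT109, the acetylase of histone H3, at 0.22 and BRE1, the ligase that adds ubiquitin to histone H2B, at -0.23.

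Of 11 cofactors of Ty1 RNA and integration, the double null had 2 that rose and 6 that fell, the dot4 null 2 and 3, and the ubp8 null 1 and 5. PAT1, a decapping activator of RNA bodies where Ty1 RNA gathers, fell by 0.43 ± 0.02 in the double null (SE, n = 3; limma adjusted p = 9.8e-08) and by 0.39 ± 0.02 in the ubp8 null (limma adjusted p = 2.0e-06). PMR1, a manganese and calcium pump, was at -0.37 in the double null. UPF1, the helicase of nonsense-mediated decay, was at -0.34 in the ubp8 null. BAS1, a regulator of purine and histidine genes, was at 0.30 in the dot4 null. DHH1, another decapping activator, was at -0.19 there and was not called without centring (limma adjusted p = 0.30).

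The 14 nearest measured ORFs on either side of the members that are no Ty ORFs were tested in the same fit. The double null had 4 higher and 6 lower, the dot4 null 4 and 5, and the ubp8 null 3 and 7, to be read against the shares of all ORFs given above. Without centring these were 4 and 4, 4 and 2, and 3 and 4. Of the calls with centring, 10, 7 and 9 lay on the same side of 0 in both orientations, in the same order of genotypes. The medians of the 14 were -0.12, 0.02 and -0.14. Averaged over orientations, the 2 that passed 1.5-fold were both in the double null. In a single orientation of the dot4 null BNA1 (-0.62, channel 1) and YBR013C (-0.61, channel 2) passed it as well. BUR6, a subunit of the NC2 transcription regulator beside YER160C, rose by 1.01 ± 0.03 (SE, n = 3; limma adjusted p = 2.0e-09) and was also higher in the dot4 null (0.43) and the ubp8 null (0.50). It read 0.96 with channel 1 and 1.06 with channel 2, a gap far smaller than that of YER160C. PDR3, an activator of drug resistance genes beside YBL005W-A, fell by 0.65 ± 0.03 (limma adjusted p = 3.9e-08). It was at -0.08 in the dot4 null and -0.17 in the ubp8 null. The dot4 null's orientations lay on opposite sides of 0 for PDR3, at -0.25 with channel 1 and 0.09 with channel 2.

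The neighbours on chromosomes X and XIII moved in both directions. BNA1, an enzyme of NAD synthesis beside the 3 members on chromosome X, rose by 0.37 ± 0.04 in the double null and by 0.30 ± 0.04 in the ubp8 null, and fell by 0.49 ± 0.04 in the dot4 null (SE, n = 3; limma adjusted p = 1.9e-05, 0.00021 and 5.5e-06). RBH2, on the other side of these members, was lower in every genotype: -0.35 (double null), -0.32 (dot4 null) and -0.18 (ubp8 null). The dot4 null value came from -0.06 with channel 1 and -0.58 with channel 2. ERB1, a ribosome assembly factor beside YMR050C and YMR051C, was at 0.39 in the dot4 null, at -0.33 in the ubp8 null and at -0.06 in the double null, where it was not called (limma adjusted p = 0.074). FAR3, which acts in pheromone arrest on the other side of that pair, was at 0.32 (double null) and 0.25 (ubp8 null). VPS71, a subunit of the SWR1 complex beside YML040W, was at 0.26 in the double null and 0.25 in the dot4 null, and YMD8 on the other side was at -0.25 and -0.26. YMD8 was not called in the dot4 null without centring (limma adjusted p = 0.069).

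**Figure D4:**
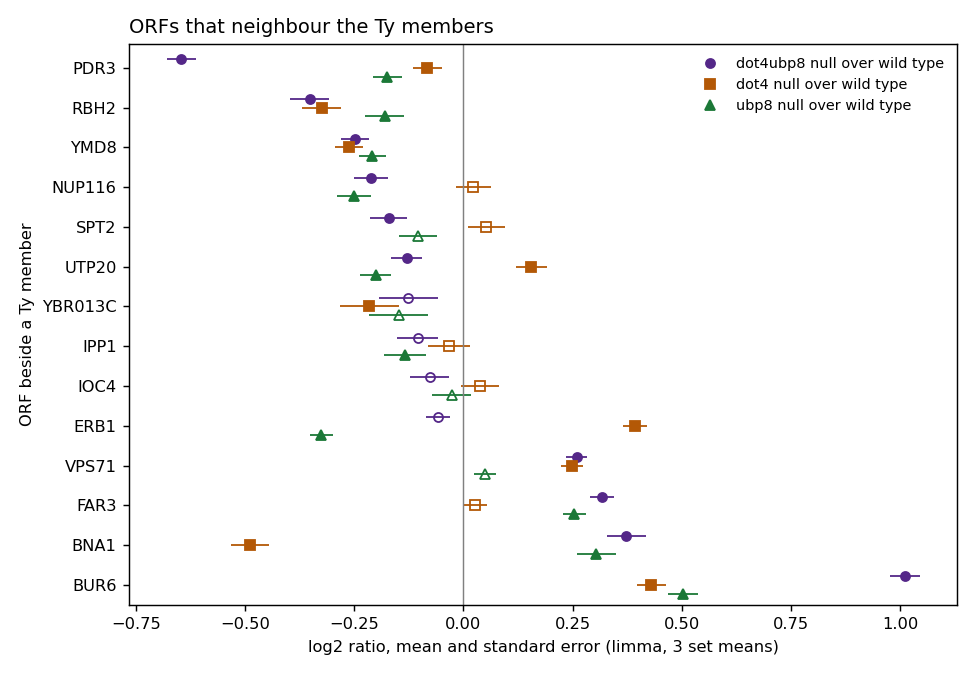
Log2 ratio of null over wild type, mean over both orientations with its standard error from limma (3 set means), of the 14 ORFs that neighbour the Ty members; filled symbols passed an adjusted p of 0.05. BUR6 at 1.01 and PDR3 at -0.65 in the double null lie farthest out.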

How the data were processed

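The authors deposited 1 log2 ratio of the 2 channels per ORF and array. The sources used here do not give the background correction, normalization or array design, and channel intensities were not used. Scale and direction follow from the values, and precision is limited by the number of arrays. The 10 members, the gene lists and the tests were chosen with earlier results of these data known. The median over 6205 ORFs was subtracted on each array, and arrays with the null RNA in channel 1 had their sign turned. A stand-in value, found 2 times, and 9 empty cells were treated as missing. The 2 orientations of a set were averaged, and the 9 set means entered limma 3.58.1 (R 4.3.3; lmFit, eBayes, each genotype's mean against 0), with Benjamini-Hochberg adjustment over all ORFs and a threshold of 0.05. The fit was tested on simulated data. Tables and figures were made in Python 3.11.15 with pandas 2.3.3 and matplotlib 3.10.9. The wild type's own spread between cultures is not separated. A fold of 1.5 is 0.585 on the log2 scale.

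Symbols and lengths came from a RefSeq table of R64, which matched 5705 ORFs and left 500. The deposited table names no build, so no coordinates are printed. The other Ty ORFs were to be grouped by annotated family. The table names none, so lengths over 1000 bases shared by at least 8 unnamed models were used, which was decided with the file in view. Named genes were all members, the 5 ORFs most like their median, the largest called genes of each list and the largest called neighbours. Alternatives were no centring, scaled arrays, each orientation alone, sets left out, the set as a block, a trended robust fit, other summaries of the members and Spearman correlation.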

Additional observations from a re-analysis of the deposited data

Results flagged for a closer look

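Among the 10 members and the named genes, there were 4 cases in which the 3 arrays with the null RNA in channel 1 were all below 0 and the 3 with it in channel 2 all above 0, for the same genotype over wild type. All 4 were long Ty members. In the dot4 null the means differed by -0.92 for YER160C (-0.71 with channel 1, 0.21 with channel 2) and by -1.16 for YMR050C (-0.88 and 0.28). In the ubp8 null they differed by -2.18 for YJR027W (-1.92 and 0.26) and by -1.75 for YMR050C (-1.31 and 0.44). The difference was not tested, since the choice of these ORFs used it.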

How the results depend on the processing

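Of the medians, gaps and other summaries of the 10 members, 78 values under an alternative moved by less than the SD between sets and 15 by more. For means of single members over both orientations the numbers were 137 and 13. With scaled arrays every member moved by more in the double null, for example YBL005W-A from -1.67 to -1.46. Among counts of calls 50 stayed within 1.5 times and 4 did not. Of the values of named genes, 467 kept direction and call, and 19 kept direction and lost the call. Among the calls of neighbours, 1 turned its direction from the channel 1 arrays alone in the dot4 null (YBR013C, called lower, with a channel 1 mean of 0.18 and a channel 2 mean of -0.61). In the ubp8 null 1 did so from the channel 2 arrays alone (IPP1, called lower, with means of -0.43 and 0.16). Both are named for this after their values were seen. With arrays scaled to one spread the double null's median was -1.49 with channel 1 and -1.21 over both orientations. Without centring the dot4 null's channel 2 median was -0.40 and its orientation gap -0.45, against -0.12 as reported. The median of all ORFs then shifted by 0.25 there, by -0.14 in the ubp8 null with channel 1 and by 0.11 with channel 2. The kind of ORF mattered most. The long ORFs alone had medians of 0.024 (double null, channel 2), -0.91 (double null, both), 0.28 (dot4 null, channel 2), -0.25 (dot4 null, both), -1.28 (ubp8 null, channel 1) and 0.34 (ubp8 null, channel 2), and the short ORFs alone -0.72 in the dot4 null with channel 2. A mean in place of the median gave -0.79 and -1.31 in the double null (channel 2, both) and -0.48 and -0.59 in the dot4 null. Called genes among the 65 numbered 25 in place of 48 in the double null and 15 in place of 38 in the ubp8 null without centring, and 22 to 36 in the ubp8 null with 1 set left out. The cause of these shifts was not tested.

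Leaving out YJR027W, the double null array with the other strain number, or the ubp8 null array on which YJR027W read lowest moved no member median beyond the SD between sets; the omission of YJR027W and of that ubp8 null array was chosen after seeing the data. The set numbers did not pair the arrays. Correlations of deviations ran from -0.26 to 0.27 between equal numbers in different genotypes, and from -0.33 to 0.30 between unequal ones. With the set as a replicate block the calls among the 65 were 52, 26 and 38 in the double, dot4 and ubp8 null, and among the 14 neighbours 10, 8 and 11. Without channel intensities no limit by signal over background could be given.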
